A study of Mus musculus with 4 samples.

Results

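Cluster 4 was 1 of 19 clusters into which the authors placed the live CD45+ cells of mouse tumours, and it is described here by its leading genes, Chil3, Hp and Sgk1. Its members were the cells that carry cluster number 4 in the authors' deposited cell table and whose barcode was found in the count matrix of the same library. There were 1159 such cells among 14491 listed cells (8.0%). They were compared with the other 5 myeloid clusters, numbered 0, 1, 2, 7 and 15 (7216 cells), and between antibody groups.

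Each of the 4 groups was a single 10x Genomics 3′ library from wild-type 129S6 mice carrying transplanted tumours. The combination group received both anti-PD-1 (clone RMP1-14) and anti-CTLA-4 (clone 9D9), 2 further groups received 1 of these antibodies each, and the control group received a rat IgG2a isotype antibody. Antibody was given into the peritoneum, at 200 µg, on days 3, 6 and 9 after the transplant. The sources used here do not give the age of the mice, the tumour line or how many mice entered a library. With 1 library in each group there was no replicate, so no test between groups was possible: every interval below is a 95% interval for counting error, and differences between mice or library preparations cannot be told apart from those between antibodies.

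Monocytes enter tumours from the blood and turn into macrophages and related cells whose gene programmes vary with oxygen, cytokines and contact with lymphocytes. Chil3 (also called Ym1) encodes a secreted chitinase-like protein made in mice by myeloid precursors, monocytes and alternatively activated macrophages. Hp encodes haptoglobin, which binds free haemoglobin and is stored in granules of myeloid cells, and Sgk1 encodes a kinase induced by serum and glucocorticoids.

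The promoters of leading genes of cluster 4 are shown because these genes were counted together in it, and C/EBP factors and the glucocorticoid receptor are well known regulators of myeloid and stress genes. Each window runs from 250 bases before to 50 bases after a transcription start, from RefSeq on build GRCm38.p6, 5′ to 3′ on the gene's strand. Capitals mark matches to TTGCNNAA (a C/EBP-type motif; TTNNGCAA on the other strand) or to AGAACA and TGTNCT with any 3 bases between them (a glucocorticoid receptor-type motif), searched on both strands. Of 8 genes looked up, 5 had an entry. Sgk1 has 6 annotated starts, of which the fifth is shown because it alone held a glucocorticoid receptor-type match, and 3′ tags do not tell which start a transcript came from. The Chil3 window is chr3:106167515-106167814 (minus strand), the Sgk1 window chr10:21993640-21993939 (plus strand), the Mmp8 window chr9:7558179-7558478 (plus strand) and the Slc7a11 window chr3:50443564-50443863 (minus strand).
Chil3: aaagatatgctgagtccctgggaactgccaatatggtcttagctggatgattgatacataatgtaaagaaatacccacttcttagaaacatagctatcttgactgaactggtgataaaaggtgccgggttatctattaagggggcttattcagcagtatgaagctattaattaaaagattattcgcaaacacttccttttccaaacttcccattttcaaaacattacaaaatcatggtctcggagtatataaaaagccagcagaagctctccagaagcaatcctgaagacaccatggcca
Sgk1: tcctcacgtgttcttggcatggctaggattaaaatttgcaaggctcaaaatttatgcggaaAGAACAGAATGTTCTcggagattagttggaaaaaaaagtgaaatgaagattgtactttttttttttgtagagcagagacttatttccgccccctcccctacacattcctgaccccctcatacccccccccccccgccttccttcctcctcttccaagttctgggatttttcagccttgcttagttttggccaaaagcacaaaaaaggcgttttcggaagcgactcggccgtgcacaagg
Mmp8: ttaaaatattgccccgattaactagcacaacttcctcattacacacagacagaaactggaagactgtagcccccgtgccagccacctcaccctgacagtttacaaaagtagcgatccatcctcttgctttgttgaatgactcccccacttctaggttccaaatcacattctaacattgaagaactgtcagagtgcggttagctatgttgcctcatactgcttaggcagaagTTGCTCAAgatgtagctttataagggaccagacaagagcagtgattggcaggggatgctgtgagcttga
Slc7a11: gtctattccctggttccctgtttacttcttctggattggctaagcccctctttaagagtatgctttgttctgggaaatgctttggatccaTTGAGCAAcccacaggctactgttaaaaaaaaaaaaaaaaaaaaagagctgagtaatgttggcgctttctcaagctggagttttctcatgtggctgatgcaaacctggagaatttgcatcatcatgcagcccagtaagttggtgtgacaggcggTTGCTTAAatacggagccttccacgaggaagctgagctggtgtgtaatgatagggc
The Chil3 window held no match to either motif. The Sgk1 window held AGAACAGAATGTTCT, which begins 189 bases before the start; 0.0396% of all 32851 promoter windows (13) held a match to that motif. The C/EBP-type match in Mmp8 was TTGCTCAA, 19 bases before the start. Slc7a11 held TTGCTTAA at 6 bases and TTGAGCAA at 160 bases before the start. A C/EBP-type match stood in 10.8% of all windows (3547) and in 3 of the 10 windows of these 5 genes, the last being the second Sgk1 start, which is not shown. These matches describe letters and not binding.

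Cluster 4 held 589 of 3945 listed cells in the combination library (14.9%, 13.8 to 16.1), 252 of 3417 in the anti-PD-1 library (7.37%, 6.52 to 8.30), 263 of 3336 in the anti-CTLA-4 library (7.88%, 6.99 to 8.85) and 55 of 3793 in the control library (1.45%, 1.09 to 1.88; Clopper-Pearson). Of the 6 myeloid clusters together, it made up 27.6% of the cells in the combination library, 11.7% under anti-PD-1, 12.8% under anti-CTLA-4 and 2.71% in the control library. The share of listed cells was thus 10.3 times, 5.09 times and 5.44 times the control share under the combination, anti-PD-1 and anti-CTLA-4. The intervals of the treated libraries did not overlap that of the control library, and those of the antibodies given alone overlapped each other. Some genes that defined the cluster differed between libraries (below), so membership and expression are not independent. When cells were reassigned to the nearest myeloid cluster without the 50 leading genes of the cluster, the shares were 19.0%, 9.83%, 10.2% and 2.90% in the same order, and 950 of the 1159 members (82.0%) stayed in cluster 4. Reassignment gave 1536 members, of which 61.8% carried the authors' number 4, and in the control library 110 members, of which 38.2% did.

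**Figure D1:**
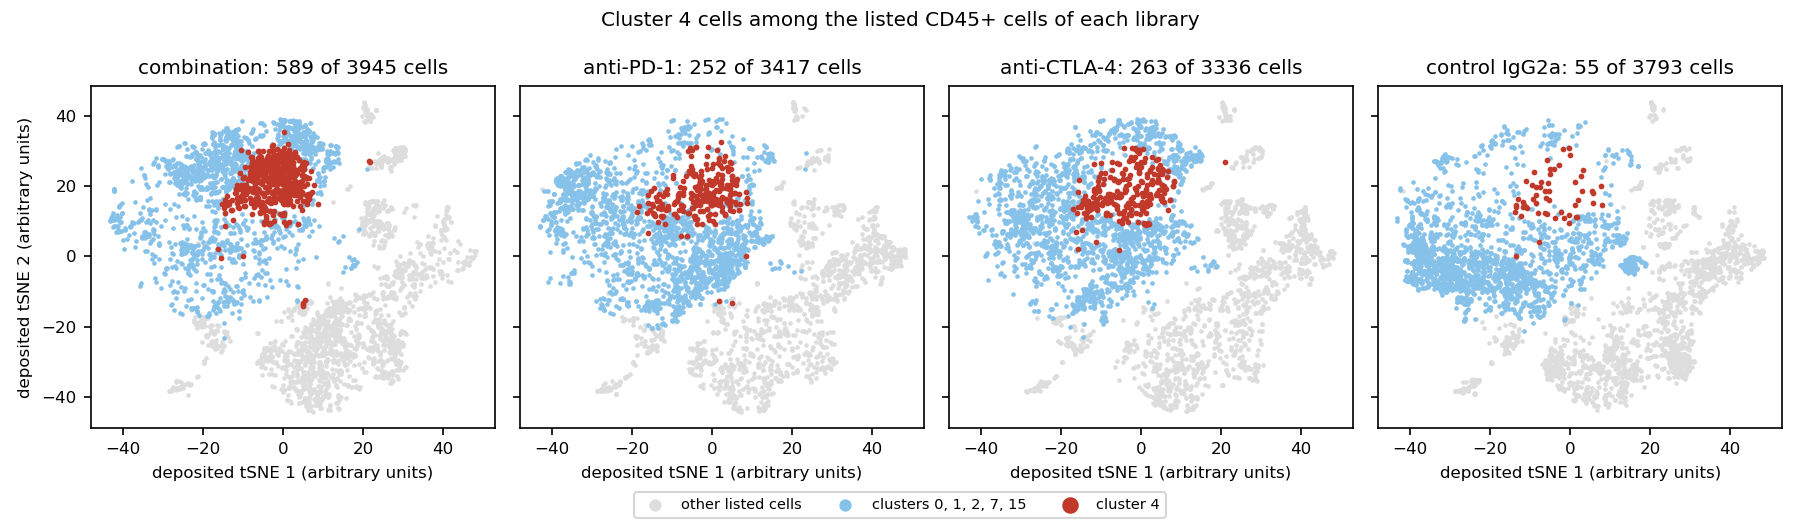
Each point is a listed cell at the authors' tSNE coordinates (both axes in arbitrary units), in a panel per library from combination to control, with cluster 4 in red, the other 5 myeloid clusters in blue and all other listed cells in grey. The red cells form 1 main field, dense in the combination panel (589 cells) and sparse in the control panel (55 cells), and a few lie away from it.

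The members were deep cells: the median was 4112, 4423 and 3952 UMIs (tags that each mark a captured RNA molecule) per cell with the combination, anti-PD-1 and anti-CTLA-4 and 4268 in the control library, against 2785, 3099, 3114 and 3838 in the other myeloid clusters. In total the cluster held 2466904, 1112772, 1063578 and 235626 UMIs in that order, so 3 UMIs, the limit used for a count of 0, correspond to 12.7 CPM (UMIs of a gene per 1000000 UMIs of the cluster in that library) in the control library. The listed cells held 11176246 to 13374294 UMIs per library over 27998 genes. Of all barcodes, 109 occurred in more than 1 library, 17 of them on a cell of cluster 4. No member appeared in the authors' separate lymphoid table.

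The label was checked against marker lists. Summed over 10 genes such as C1qa, Csf1r and Cd68, macrophage markers stood at 6865 CPM in the combination, 8632 under anti-PD-1, 8807 under anti-CTLA-4 and 9125 in the control cells of the cluster, below the other myeloid clusters summed (13065, 13735, 13384 and 17781 CPM). By mean over libraries, the sum was 8357 CPM in cluster 4, above clusters 0 (6606) and 7 (6955) and below clusters 15 (10783), 2 (19322) and 1 (21094). A monocyte list of genes such as Ly6c2, Ccr2 and Plac8, taken here without Chil3, summed to 2752, 3224, 3695 and 2474 CPM in that order, against 2595, 4024, 4077 and 2372 CPM in the other myeloid clusters. By mean, cluster 4 (3036 CPM) lay below clusters 0 and 7 (6084 and 5841) and above clusters 15, 1 and 2 (2269, 1802 and 1361). The cells thus carried both monocyte and macrophage markers, with neither list at its highest in cluster 4.

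Lineage markers of other cell types were mostly low in cluster 4. The neutrophil list summed to 201 to 331 CPM, against 27194 to 84453 CPM in the neutrophil-like cluster, and Ly6g and Ltf were at 0 in all 4 libraries. T cell markers summed to 57.4 to 119 CPM, against 4550 to 5997 CPM in the T cell-like clusters, NK cell markers to 19.9 to 36.7 CPM, and conventional dendritic cell markers to 97.6 to 126 CPM with Xcr1 and Cd209a at 0. The B cell genes Ms4a1 and Pax5 and the plasmacytoid dendritic cell genes Siglech, Ccr9 and Klk1 were at 0. The plasmacytoid list as a whole summed to 629, 626, 741 and 505 CPM, close to the other myeloid clusters (659, 677, 725 and 578 CPM) and below its own class (9514 to 13445 CPM); most of this was Irf8 (233 to 384 CPM) and Bst2 (216 to 327 CPM), which are not limited to those cells. Migratory dendritic cell markers, which include Ccl22 and Socs2, summed to 36.9, 17.1, 16.9 and 12.7 CPM in cluster 4. They stood at 19.8, 38.1, 30.4 and 19.6 CPM in the other myeloid clusters and at 6575 to 8251 CPM in their own class. Tumour or fibroblast markers summed to 15 to 34 CPM.

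Chil3 (ENSMUSG00000040809, chr3:106147554-106167564, minus strand of mm10) was the marker that differed most between libraries. It stood at 2266 CPM in the combination cells of cluster 4 (5589 UMIs), 327 CPM with anti-PD-1 (364 UMIs), 305 CPM with anti-CTLA-4 (324 UMIs) and 25.5 CPM in the control cells (6 UMIs). The other myeloid clusters held 628, 197, 149 and 24 CPM. The log2 ratio of cluster 4 over them was 1.85, 0.73, 1.03 and 0.20, with a median of 0.88. In the control library the marker thus hardly set the cluster apart from the others summed. There Chil3 was lower in cluster 4 than in cluster 0 (78.01 CPM, 130 UMIs) and cluster 7 (35.03 CPM, 13 UMIs). It was higher than in clusters 1 and 2, and the value for cluster 4 rests on 6 UMIs. Mean Chil3 over libraries was 731 CPM in cluster 4, 296 in cluster 2, 288 in cluster 0, 248 in cluster 7, 224 in cluster 15 and 54.7 in cluster 1. Chil4, a close paralog, was not among the genes with enough UMIs, and the sources used here do not say how reads shared by such copies were counted.

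Hp (ENSMUSG00000031722, chr8:109575128-109579172, minus strand) behaved differently, with 337, 446 and 369 CPM in the combination, anti-PD-1 and anti-CTLA-4 cells and 182 CPM in the control cells of cluster 4. Its ratio over the other myeloid clusters was 1.43, 1.85, 1.63 and 1.93 on the log2 scale (median 1.74), so this gene separated the cluster in every library. Cluster 0 came nearest, at a mean of 232 CPM against 333 CPM in cluster 4. Sgk1 (ENSMUSG00000019970, chr10:21882184-21999903, plus strand) stood at 539, 302 and 319 CPM with the antibodies and at 221 CPM in the control cells, with log2 ratios of 1.00, 2.29, 1.32 and 1.33 (median 1.33). Cluster 7 came nearest for Sgk1, at a mean of 291 CPM against 345 CPM in cluster 4. All 3 markers had their highest mean of the 6 myeloid clusters in cluster 4, and for none of them did a gap separate it from every neighbour: over cluster 0 alone, the median log2 ratio was 0.17 for Chil3 and 0.40 for Hp.

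Few members carried the 3 markers together. After each cell was thinned to 1000 UMIs (3 of the 1159 were shallower), a Chil3 UMI was found in 30.2%, 12.7% and 14.9% of the combination, anti-PD-1 and anti-CTLA-4 cells and in 3.64% of the control cells. Unthinned, the shares were 43.0%, 22.2%, 29.7% and 5.45%. Over all libraries, 21.6% of thinned cells of cluster 4 had a Chil3 UMI, against 8.14% of the other myeloid cells and 1.06% of T cell-like cells, which should lack the gene. These pooled shares mix libraries, and the combination gave 587 of the 1156 thinned cells of cluster 4. Within libraries, the thinned shares in cluster 0 were 15.2%, 11.3%, 13.3% and 4.51% in the same order. The gap to cluster 0 was thus wide in the combination and small with single antibodies. In the control library no direction can be stated, since only 3 of the 55 members had a Chil3 UMI before thinning. Median depth was 4121 UMIs in cluster 4 and 1932 UMIs in the T cell-like clusters before thinning. Hp was seen in 25.2% of thinned members and 0.476% of T cell-like cells, and Sgk1 in 28.7% and 4.57%. All 3 were seen in 26 of 1156 thinned cells (2.25%) and none of the 3 in 491 (42.5%). At this depth the cluster is therefore described by genes summed over cells rather than by any marker seen in most of them.

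Chil3 UMIs were also unevenly spread over cells. The cells with most Chil3 UMIs, 10% of members in each library, held 76.7% of the Chil3 UMIs in the combination library (59 cells), 88.7% with anti-PD-1 (26 cells) and 76.2% with anti-CTLA-4 (27 cells), and single cells reached 440, 50 and 54 UMIs. In the control library, 3 cells had a Chil3 UMI and 1 of them held 4 of the 6. Cells with a Chil3 UMI differed from those without in other genes of the same cluster. In cells with a Chil3 UMI, Arg1, which encodes arginase, was higher on the log2 scale by 0.53, 1.30 and 0.74 under the combination, anti-PD-1 and anti-CTLA-4, and Hp by 0.49, 0.35 and 0.49. C1qa, a complement gene of mature macrophages, had log2 differences of -0.60, -0.26 and -0.66 between the same cells. The class II gene H2-Ab1 hardly differed (-0.00, -0.07 and -0.03). Cells with a Chil3 UMI were also deeper, with medians of 4372, 4602 and 3962 UMIs against 3870.5, 4361.5 and 3952 without, and the part of depth in these differences was not tested.

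Against the other myeloid clusters, the genes highest in cluster 4 were a mixed set of lipid presentation, granule, redox and inflammatory genes. The values here are median within-library log2 ratios of summed CPM, with 0.5 added to each count, and since the clusters were made from these same cells and genes they are descriptions without a test. Among genes of at least 100 CPM, Cd1d1, which presents lipid antigens to NKT cells, was highest. It stood at 137, 155, 92.1 and 93.4 CPM in cluster 4 of the combination, anti-PD-1, anti-CTLA-4 and control libraries, against 35.5, 24.4, 24.3 and 9.68 CPM in the other myeloid clusters, a median log2 ratio of 2.31. Chil1, a second chitinase-like gene (chr1:134182176-134190181, plus strand), followed a pattern unlike that of Chil3. It stood at 640, 958, 666 and 908 CPM in cluster 4, against 188, 250, 218 and 104 CPM in the others (median 1.86). It was thus as high in control cells as under treatment and set the cluster apart most in the control library. There, 52 of its 214 UMIs in cluster 4 lay in 1 cell.

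Granule and redox genes came next. Mmp8, a collagenase best known from neutrophil granules, stood at 112, 91.7, 130 and 132 CPM in cluster 4 against 52.5, 27.2, 32.1 and 25.8 CPM in the others (median 1.89). Its mean of 116 CPM was closer to clusters 7 and 0 (98.2 and 74.8 CPM) than to clusters 1 and 2 (4.74 and 16.4 CPM). Slc7a11, the cystine transporter subunit that feeds glutathione synthesis, stood at 692, 574, 523 and 522 CPM against 334, 151, 164 and 130 CPM (median 1.80), although its mean of 578 CPM was below that of cluster 7 (645 CPM). Slpi, a secreted protease inhibitor, had ratios from 0.40 in the combination to 2.88 in the control library. Further genes among the 15 highest were Rgcc (1.39), the tetraspanin Cd9 (1.35), Fcor (1.29), Ly6i (1.22), Mcemp1 (1.17), the acute-phase gene Saa3 (1.14), the glutathione transferase Mgst1 (1.14) and the neutrophil attractant Cxcl2 (1.08). Saa3 was lower in cluster 4 than in the others in the combination library, at -0.39, and its median over cluster 2 alone was -0.34. By mean over libraries, cluster 7 exceeded cluster 4 for 4 more of them: cluster 4 had 1293 CPM of Slpi against 1712 CPM in cluster 7, 88.7 against 121 CPM of Rgcc, 447 against 477 CPM of Cd9 and 2140 against 3226 CPM of Cxcl2.

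Among 11201 genes with at least 20 UMIs, 2.99% had a median at least 2-fold higher in cluster 4 and 4.29% at least 2-fold lower. In all 4 libraries at once, 7 of the 1274 genes of at least 100 CPM in cluster 4 were at least 2-fold higher: Cd1d1, Mmp8, Chil1, Slc7a11, Hp, Sgk1 and Ly6i. Of 1314 genes of at least 100 CPM in the other clusters, 10 were at least 2-fold lower: the chemokine genes Ccl12, Ccl8, Ccl7, Ccl2 and Pf4, and Cd72, Mrc1, Ms4a7, Timp2 and Cd63. These 17 genes were picked by that rule and are listed as a description. Chil3 is not among them, because its ratio fell short in the anti-PD-1 and control libraries.

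Among genes of at least 100 CPM in the other clusters, Retnla and CC chemokines that attract monocytes had the lowest ratios. Ccl8 stood at 393, 722, 1235 and 166 CPM in cluster 4, against 8986, 19271, 12884 and 4083 CPM in the other myeloid clusters (median log2 ratio -4.56). Ccl7 stood at 26.3, 44.9, 40.4 and 17 CPM, against 663, 834, 384 and 807 CPM (median -4.42), and Ccl12 had a median of -4.71. The contrast was largest with clusters 1 and 2, where Ccl8 averaged 15124 and 24871 CPM; cluster 0, at 475 CPM, was lower than cluster 4, at 629 CPM. Retnla, a gene of alternatively activated macrophages, had a median of -5.10, with no UMI in the control cells of cluster 4, where the ratio depends on the 0.5 added. The mannose receptor Mrc1 (-2.19), the platelet factor gene Pf4 (-2.32) and Ms4a7 (-2.17) were also low. Over cluster 0 alone, Ccl8, Pf4 and Ms4a7 were instead higher in cluster 4, at 0.26, 2.08 and 0.56. Retnla had 6, 3, 2 and 0 UMIs in cluster 4 of the combination, anti-PD-1, anti-CTLA-4 and control libraries, against 48, 4, 4 and 1 UMIs in cluster 0, too few for a direction in all but the combination.

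**Figure D2:**
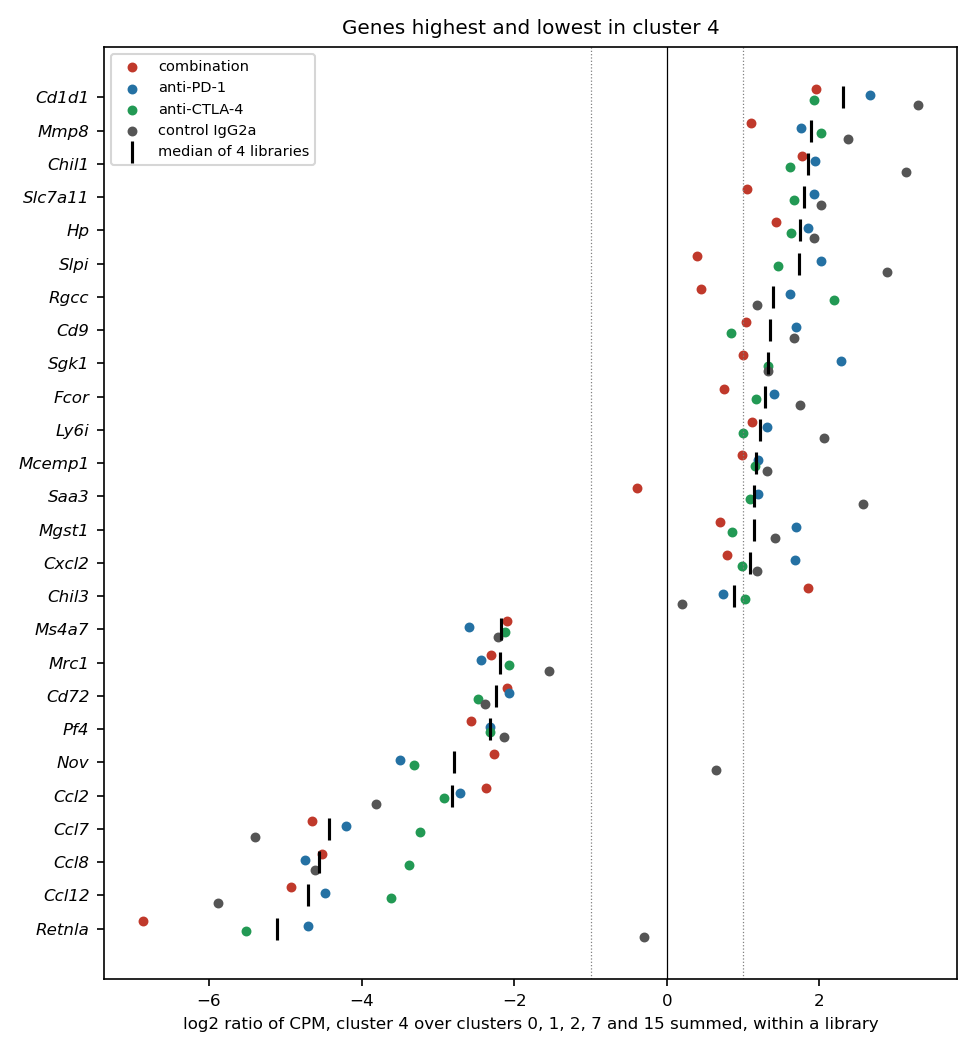
Log2 ratio of CPM in cluster 4 over the other 5 myeloid clusters summed (horizontal axis) for the highest and lowest genes, with a point per library and a bar at the median; dotted lines mark 2-fold. Cd1d1 and Hp lie right of 0 in all 4 libraries and Ccl12, Ccl8 and Ccl7 left of 0 in all 4, while the Chil3 points spread from 0.20 to 1.85.

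The gene lists place these members in wider programmes. Over all genes, 43.7% lay above 0 and the median was -0.06. Of 28 measured glycolysis and hypoxia genes 26 lay above 0 (median 0.49), with Egln3 at 1.28, Ankrd37 at 1.08 and the angiogenic factor Vegfa at 0.98. Inflammatory macrophage genes lay above 0 in 17 of 20 cases (median 0.48), with the cytokine gene Il1a at 2.48 and the neutrophil attractants Cxcl1 at 1.51 and Cxcl2 at 1.08. Granule genes shared with neutrophils lay above 0 in 9 of 12 (median 0.37), led by the antimicrobial peptide gene Camp (2.12), Mmp8 (1.89) and Ngp (1.69). Many of these genes had few UMIs: of the 12 neutrophil markers checked above, which include Camp and Ngp, 3 reached 10 CPM in cluster 4. Genes of the oxidase and nitric oxide list lay above 0 in 13 of 16 (median 0.31), with Nos2, the inducible nitric oxide synthase, at a median of 0.95 but at -0.06 in the combination library.

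The neighbour chosen mattered for these lists. Over cluster 7 alone, 3 of 20 inflammatory genes and 5 of 28 glycolysis and hypoxia genes lay above 0 (medians -0.82 and -0.21). Over cluster 0 alone, 17 of 20 and 27 of 28 lay above 0 (medians 0.69 and 0.41). Medians of the granule list over clusters 0, 1, 2, 7 and 15 alone were 0.37, 0.60, 0.91, 0.10 and -1.56. Nos2 averaged 77.1 CPM in cluster 4, against 190 CPM in cluster 7.

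The mature macrophage, interferon-induced and proliferation lists lay below 0 over the summed clusters. Mature macrophage genes were above 0 in only 3 of 23 cases (median -0.95), and 11 of them were at least 2-fold lower, led by Folr2 (-4.22), Tmem176a (-3.12) and Gas6 (-2.95). Over cluster 0 alone and cluster 7 alone the mature macrophage medians were 0.22 and 0.24, and over clusters 1 and 2 alone -1.54 and -1.18. Interferon-induced genes were above 0 in 3 of 34 (median -0.53), with 10 at least 2-fold lower and Ifit3 at -3.13, Mx1 at -2.50 and Oasl1 at -2.39; over clusters 0, 1, 2 and 7 alone the interferon medians were -0.74, -0.06, -0.08 and -1.51. Alternatively activated genes were above 0 in 3 of 18 (median -0.61). Over clusters 0, 1, 2, 7 and 15 alone their medians were -0.13, -1.15, -0.88, -0.42 and -2.02, with 8 of 18 above 0 over cluster 0. Proliferation genes were above 0 in 3 of 23 (median -1.52), and 13 of them were at least 2-fold lower. The other myeloid clusters include the cycling cluster 15; without it, 6 of 23 proliferation genes lay above 0, 2 were at least 2-fold lower and the median was -0.32. Mki67, a marker of cycling cells, averaged 9.92 CPM in cluster 4, against 8.69, 10.4, 12.4 and 5.81 CPM in clusters 0, 1, 2 and 7 and 219 CPM in cluster 15. MHC class II genes (6 of 11 above 0, median 0.02) and class I genes (9 of 16, median 0.02) lay near the other myeloid clusters summed. H2-Ab1 stood at 23412, 22977, 23172 and 22048 CPM in cluster 4 against 19612, 20241, 21353 and 19842 CPM. Over cluster 0 alone, 2 of 11 class II genes lay above 0 (median -0.28), and over cluster 7 alone 11 of 11 (median 0.44). Class I medians over the same clusters were -0.11 and 0.08.

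Single genes of the monocyte and macrophage axis pointed both ways. Ly6c2, the classical monocyte surface gene, was higher in cluster 4 in all 4 libraries (963, 1030, 1233 and 730 CPM against 524, 586, 826 and 272 CPM; median 0.85), while Ccr2, the receptor with which such monocytes leave the bone marrow, was at -0.68. The classical monocyte list as a whole lay above 0 in 9 of 23 (median -0.16). Cd14 (1.04), Il1b (0.74), F10 (0.90) and Lyz2 (0.56) were higher, and Cx3cr1 (-1.35), C1qa (-0.95) and Apoe (-0.83) lower. By mean, clusters 0 and 7 had 1040 and 1095 CPM of Ly6c2, against 989 in cluster 4. Il1b was higher in cluster 0 (1289 against 1249 CPM) and Cd14 in cluster 7 (2540 against 2504), while F10 and Lyz2 were highest in cluster 4. C1qa averaged 1818 CPM in cluster 4, above clusters 0 and 7 (1518 and 1365), as did Apoe (690 against 231 and 459). Cx3cr1 ranged from 0.07 in the combination to -4.30 in the control library (1 UMI). Arg1 was near the other myeloid clusters (0.27), at a mean of 2046 CPM in cluster 4, below clusters 2 (3025) and 7 (2647) and above cluster 0 (293).

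By whole profile, cluster 4 was nearest to cluster 0 in 3 libraries by the share of genes that differed at least 2-fold, and in the combination the nearest cluster depended on the measure. Among the 2286 to 2400 genes with a mean of at least 50 CPM, and with 10 CPM added to each value, 3.59% differed at least 2-fold between clusters 4 and 2 in the combination library, and 4.99% between clusters 4 and 0, while the median absolute log2 difference was 0.238 from cluster 2 and 0.235 from cluster 0. With anti-PD-1 alone, 6.25% differed from cluster 2 and 3.96% from cluster 0; with anti-CTLA-4 alone, 4.96% and 3.12%; and in the control library, 9.24% and 6.59%. Cluster 15 was farthest in every library, at 19.5% to 30.8%. The control library had 55 members, and these shares are not compared between libraries.

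**Figure D3:**
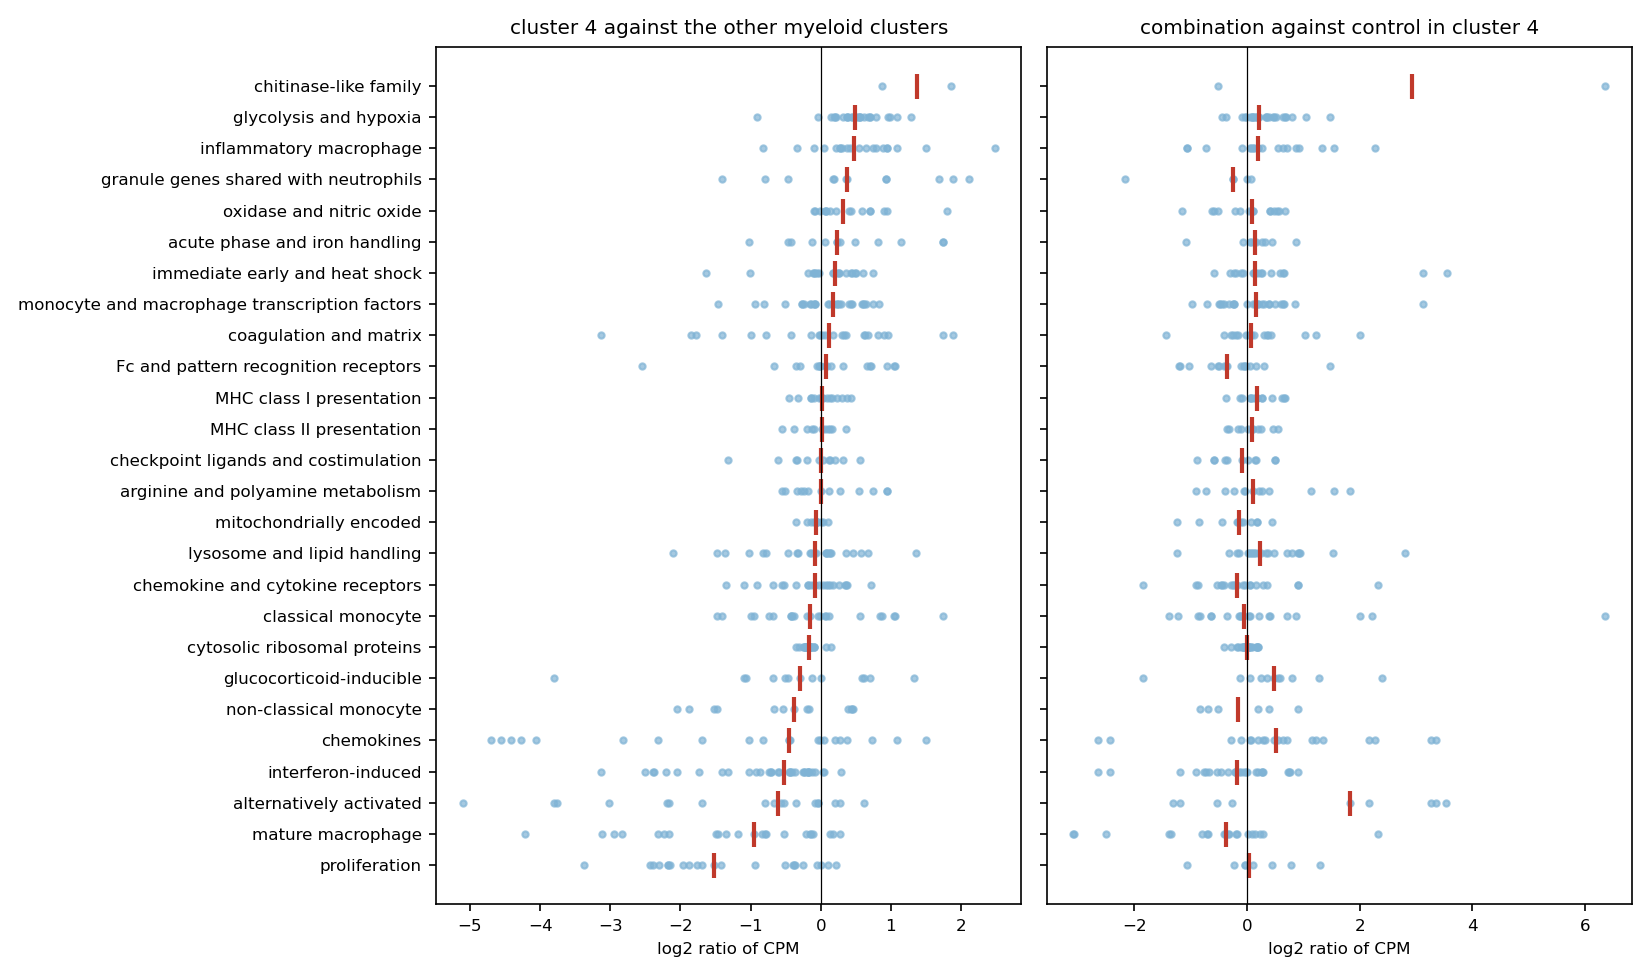
Log2 ratios of CPM (horizontal axes) of the genes of each list, for cluster 4 over the other myeloid clusters (left) and for combination over control within cluster 4 (right). Points are genes and red bars list medians; on the left the glycolysis and hypoxia median is 0.49 and the proliferation median -1.52, and genes without a control UMI enter the right panel with 0.5 added.

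The combination against control comparison asks how these cells differed when both checkpoints were blocked. Chil3 was the gene with the largest ratio, at a log2 ratio of 6.36 (5.35 to 7.92), from the values given above. It was accompanied by Arg1, which stood at 4131, 1565 and 1333 CPM in the combination, anti-PD-1 and anti-CTLA-4 cells and at 1154 CPM in the control cells (1.84, 1.67 to 2.02). The order of the 4 libraries was the same for both genes, with the combination far above the other 3. Fn1, the fibronectin gene of monocytes and wound macrophages, stood at 145, 44.9 and 60.2 CPM with the antibodies and at 34.0 CPM in the control cells, where 8 UMIs were counted (2.01, 1.10 to 3.32). When members were reassigned by centroid, the Fn1 ratio was 0.27, so this difference depends on who is counted in the cluster.

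Further genes higher under the combination were AA467197, Cxcl3 and Hspa1a. AA467197 stood at 233, 84.5, 92.1 and 17 CPM (combination, anti-PD-1, anti-CTLA-4 and control; log2 combination over control 3.61, 2.42 to 5.66). Cxcl3, a neutrophil attractant, stood at 173, 71.0, 19.7 and 34.0 CPM (2.27, 1.36 to 3.57), and was lowest with anti-CTLA-4. Hspa1a, a heat shock gene with a close paralog in Hspa1b, stood at 324, 211, 95.9 and 25.5 CPM (3.55, 2.54 to 5.12). Only 4, 8 and 6 UMIs of these genes were counted in the control cells.

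Hp, Sgk1 and the clotting factor gene F10 were also higher under the combination than in control cells, at log2 ratios of 0.87, 1.27 and 1.02. When cells were thinned to 1000 UMIs, Hp was at 0.29 and Sgk1 at 0.56, so the sizes of these ratios differ with that step. Genes at nearly the same level in both libraries were H2-Ab1 (0.09), the PD-1 ligand gene Cd274 (0.16), Nos2 (0.11), Ccr2 (0.05) and Lyz2 (-0.15). Chil1, unlike Chil3, had a ratio of -0.51, and 52 of its 214 control UMIs lay in 1 cell.

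**Figure D4:**
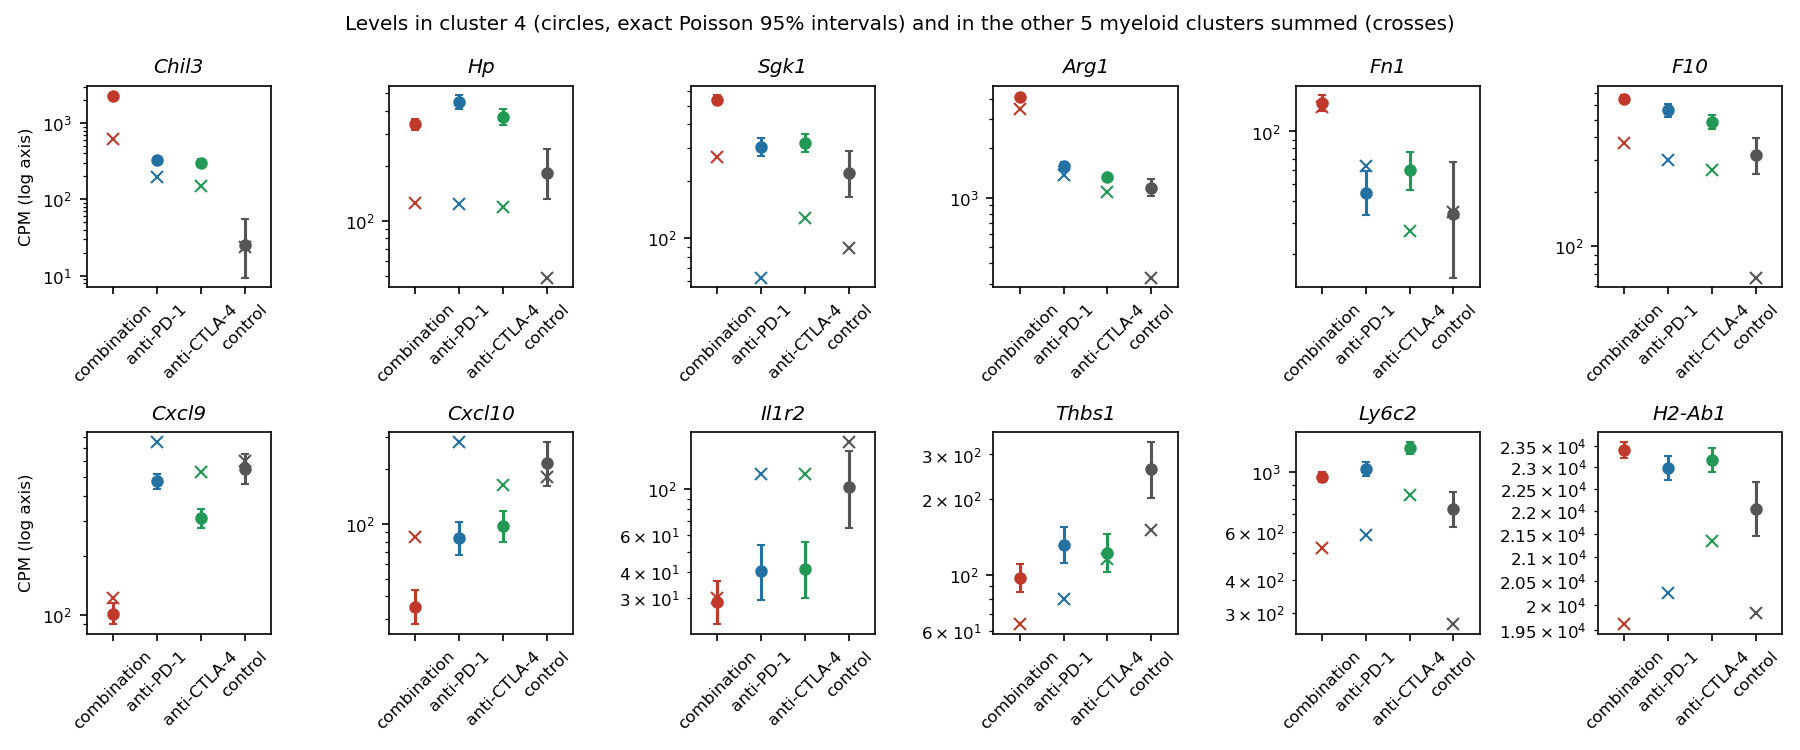
CPM (vertical log axes) of 12 genes in the combination, anti-PD-1, anti-CTLA-4 and control libraries, as circles with exact 95% Poisson bars for cluster 4 and as crosses for the other 5 myeloid clusters summed. Chil3 and Arg1 in cluster 4 are highest in the combination (2266 and 4131 CPM), while Cxcl9 is lowest there (102 CPM).

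The lowest combination over control ratios came from single control cells. Among the 55 control members, 26 of 27 UMIs of Zfp84, 34 of 36 of Cenpa, 33 of 38 of Tmem170b, 39 of 47 of Aff1, 38 of 42 of Bop1 and 32 of 41 of D10Jhu81e lay in 1 cell each, that for Bop1 and D10Jhu81e being the same cell. Their log2 ratios were -4.78, -4.02, -3.59, -3.55, -3.49 and -3.61 with that cell, and -0.62, -0.19, -0.81, -1.11, -0.29 and -1.52 without it. The size of these ratios therefore rests largely on individual cells. Without that cell Aff1 and D10Jhu81e were still past 2-fold, and of the genes named here only D10Jhu81e had an interval (-2.55 to -0.22) that excluded an equal level. Apoe showed the opposite: 95 of its 133 control UMIs lay in 1 cell, and the ratio was 0.71 with it and 2.48 without it.

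Among genes of at least 100 CPM in control cells with at most 25% of those UMIs in 1 cell, a limit set after the values were seen, the lowest was Cxcl9. This interferon-γ-induced chemokine attracts CXCR3-bearing T cells, and it stood at 102, 477 and 309 CPM in the combination, anti-PD-1 and anti-CTLA-4 cells and at 552 CPM in control cells (log2 combination over control -2.44, -2.74 to -2.12). The combination was the low library. Cxcl10, another such chemokine, was at -2.64, but 26 of its 51 control UMIs lay in 1 cell, without which the ratio was -1.65. Ifitm1, an interferon-induced membrane gene, stood at 322, 705, 331 and 1218 CPM (-1.92 for the combination). The decoy interleukin-1 receptor gene Il1r2 (-1.84) and Thbs1, encoding thrombospondin (97.3, 131, 122 and 263 CPM; -1.44), were lower too, with the control library the highest of the 4 for each.

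Across genes with at least 20 UMIs in both libraries together, 7.9% were at least 2-fold higher in the combination and 9.39% at least 2-fold lower; over all 6761 the median was -0.08 and 44.8% lay above 0. Glycolysis and hypoxia genes lay above 0 in 22 of 27 (median 0.21), led by Egln3 (1.47) and Ankrd37 (1.04). MHC class I genes lay above 0 in 13 of 16 (median 0.17), with the peptide transporter genes Tap2 at 0.68 and Tap1 at 0.62. Interferon-induced genes lay above 0 in 10 of 28 (median -0.17) and mature macrophage genes in 6 of 20 (median -0.37). Alternatively activated genes lay above 0 in 5 of 9. Of these, Ccl17 (53 UMIs in the combination), Ccl22 and Socs2 (60 UMIs in the combination) had no UMI in the control cells, where 3 UMIs are the limit, and no median is given for that list. Ccl22 and Socs2 are also on the migratory dendritic cell list, whose sum in cluster 4 was highest in the combination (36.9 CPM). Which cells these UMIs came from was not tested.

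The same contrast in the other large myeloid clusters gives the context for these genes. For Chil3, the combination over control log2 ratio was 6.36 in cluster 4, 2.71 in cluster 0, 3.38 in cluster 1, 5.53 in cluster 2 and 4.17 in cluster 7. Arg1 was at 1.84 in cluster 4 and at 3.26, 1.38, 1.75 and 1.99 in clusters 0, 1, 2 and 7. Both genes were thus higher under the combination in all 5 clusters, and the Arg1 ratio was largest outside cluster 4. Cxcl9 was at -2.44 in cluster 4 and at -2.19, -1.51, -2.52 and -3.30 in the same clusters, Il1r2 at -1.84 and at -1.88, -2.29, -1.82 and -3.56, and Thbs1 at -1.44 and at -1.49, -2.58, -1.87 and -1.66. Those genes were lower in each. Hspa1a and Cxcl3 had ratios of 3.55 and 2.27 in cluster 4, and from 0.38 to 0.99 and from -0.70 to 0.81 in the other 4 clusters. The differences between clusters were not tested.

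**Figure D5:**
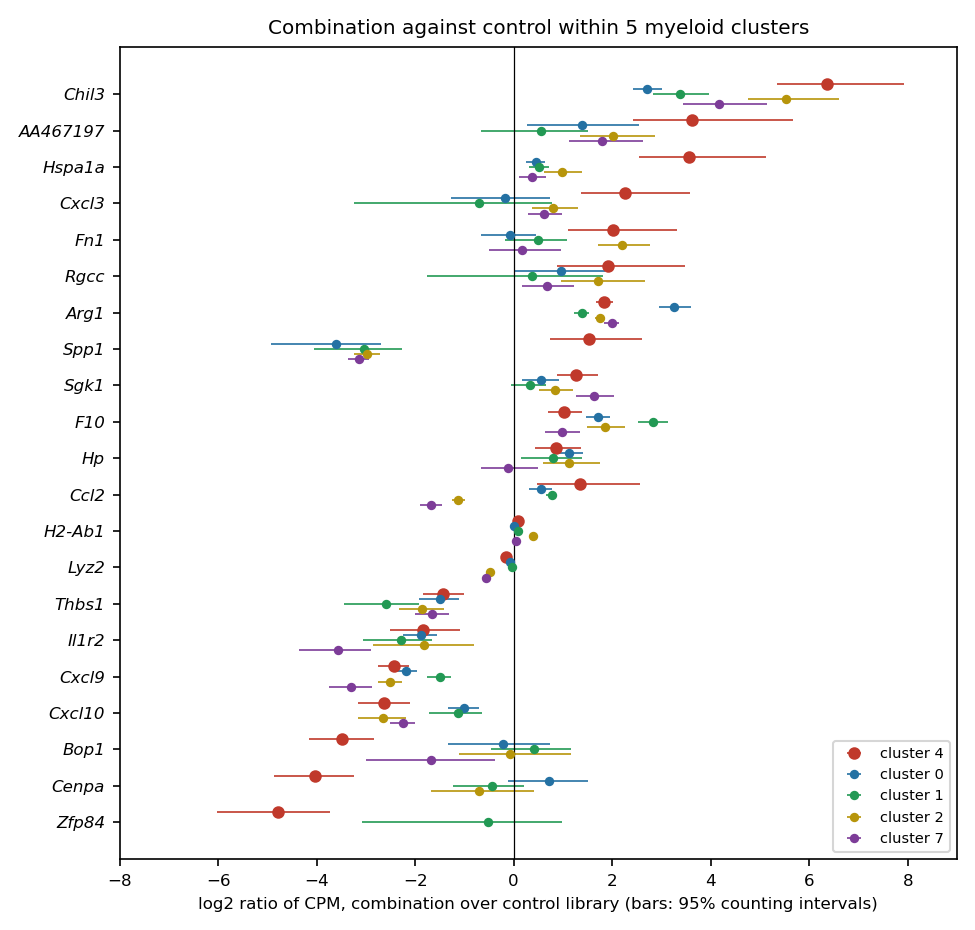
Log2 ratio of CPM, combination over control (horizontal axis), for named genes in clusters 4, 0, 1, 2 and 7, with 95% bars for counting error only. Chil3 lies right of 0 in all 5 clusters (6.36 in cluster 4) and Cxcl9 left of 0 in all 5 (-2.44 in cluster 4); genes with too few UMIs in a cluster have no point.

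The libraries of single antibodies share the control library with the combination, so its 55 cells enter every value that follows. With anti-PD-1 against control, 7.22% of 5109 genes were at least 2-fold higher and 6.52% lower. Chil3 was at 3.57 (2.55 to 5.14), Hp at 1.27, F10 at 0.82 and Sgk1 at 0.44, with Sgk1 at -0.22 and a smaller Hp ratio after thinning. The eosinophil attractant Ccl24 had the largest ratio, at 195 CPM against 4.24 CPM (217 and 1 UMIs; 4.94, 3.03 to 10.83), and 36.9% of its anti-PD-1 UMIs lay in 1 cell. Inflammatory macrophage genes lay above 0 in 16 of 19 (median 0.39; all genes 47.9% above 0) and interferon-induced genes in 19 of 26 (median 0.24). Cxcl9, at -0.21 (-0.49 to 0.08), was not separated from the control cells by counting error, and Il1r2 (-1.35) and Thbs1 (-1.01) were lower.

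With anti-CTLA-4 against control, 7.06% of 4983 genes were at least 2-fold higher and 6.32% lower. Chil3 was at 3.47 (2.44 to 5.04), Hp at 1.00 and F10 at 0.60. Ccl8 was at 2.88, from 1313 UMIs against 39, with 36.1% of the anti-CTLA-4 UMIs in 1 cell. Over all genes 48.2% lay above 0. The kinase gene Pim3 (2.23, with 24.1% of the UMIs in 1 cell) was also higher. Rgcc (2.57), the arginine transporter gene Slc7a2 (1.76) and the integrin gene Itga4 (1.71) had 35.6%, 26.3% and 32.0% of their anti-CTLA-4 UMIs in 1 cell. Ifitm1 (-1.88), Dab2 (-1.47), Il1r2 (-1.31), Thbs1 (-1.11) and Cxcl9 (-0.84) were lower. Side by side, all 3 antibody libraries thus had more Chil3, Hp and F10 and less Il1r2 and Thbs1 than the control library, while Arg1 was at 1.84, 0.44 and 0.21 in the combination, anti-PD-1 and anti-CTLA-4 cells. The Hp gap was smaller after thinning to 1000 UMIs. Mean Hp UMIs per thinned cell were then 0.37, 0.43 and 0.38 with the antibodies and 0.29 in the 55 control cells.

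The combination was last set against each antibody given alone, where the cell numbers were larger. Against anti-PD-1, 3.55% of 7412 genes were at least 2-fold higher and 3.59% lower. Among genes of at least 100 CPM in the combination cells, the largest ratio was again Chil3, at 2.79 (2.64 to 2.95), followed by Fn1 (1.68), AA467197 (1.46), Arg1 (1.40), Cxcl3 (1.28), the matrix protein gene Spp1 (1.23, with 42.2% of its combination UMIs in 1 cell, and -0.55 with members by centroid) and the transcription factor gene Klf2 (1.21). Lower were Cxcl9 (-2.22), Saa3 (138 CPM against 444 CPM; -1.69) and Ccl24 (-1.67). Xaf1 was at -1.98, with 49.1% of its anti-PD-1 UMIs in 1 cell. Interferon-induced genes lay above 0 in only 3 of 29 (median -0.33; all genes 48.4% above 0), with Rsad2 at -1.83, and ribosomal protein genes in 21 of 22 (median 0.18). Sgk1 was at 0.83 and Hp at -0.40, so the marker genes did not move together.

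Against anti-CTLA-4, 3.98% of 7405 genes were at least 2-fold higher in the combination and 3.77% lower. Among genes of at least 100 CPM in the combination cells, Cxcl3 had the largest ratio (3.10, 2.50 to 3.84), and Chil3 was at 2.89 (2.73 to 3.06). Spp1 (2.67), Hspa1a (1.75), Arg1 (1.63), Ccl2 (1.39) and Cd9 (718 CPM against 278 CPM; 1.37) were higher. Lower were the activation marker Cd83 (-1.88, with 32.2% of its anti-CTLA-4 UMIs in 1 cell), Itga4 (-1.75), Ccl8 (-1.65) and Cxcl9 (-1.60). Interferon-induced genes lay above 0 in 10 of 31 (median -0.24; all genes 46.4%). Hp was at -0.13 and Sgk1 at 0.76.

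Between the antibody libraries the profiles of cluster 4 lay close together. By the same measure, 1.19% of genes differed at least 2-fold between the combination and anti-PD-1 cells, 1.49% between the combination and anti-CTLA-4 cells and 1.34% between anti-PD-1 and anti-CTLA-4 cells. Against the control cells, 5.71%, 6.36% and 6.22% differed for the combination, anti-PD-1 and anti-CTLA-4. The control profile rests on 55 cells, and how much of the larger shares comes from that number was not tested.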

How the data were processed

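Single-cell RNA of sorted live CD45+ tumour cells (purity above 96%, per the labels) was measured in 4 libraries. The authors deposited unnormalized UMI counts, and tables with a cluster number and tSNE coordinates (a score with no fixed unit) per cell, the first used to find members and the second only to plot them. Cell Ranger, Seurat and mm10 are named in the submitters' processing notes; the sources used here do not give versions, filters, annotation or alignment settings. Of 14493 cells in the deposited table, 14491 were found in the matrices.

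UMI counts were summed per library and cluster and divided by their total (CPM). Ratios had 0.5 added to each count and needed 20 UMIs in both sides together. Between libraries, intervals were exact conditional binomial ones, shares had Clopper-Pearson intervals, and levels exact Poisson ones, all at 95% and for counting error only. Barcodes with the highest UMIs or lymphoid genes were left out as possible doublets in an alternative; no doublet caller was run, and the sources used here do not state whether the authors removed doublets. Cluster names such as T cell-like rest on marker lists, since the authors' tables give numbers without names.

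Named genes were the 3 markers, key genes of the lists, the 15 highest and 10 lowest genes against the other myeloid clusters (at least 100 CPM), the 6 highest and 6 lowest per library comparison, and up to 3 members per list by size; genes outside this rule were chosen after their values were seen. The members, lists and comparisons were chosen with earlier results of these data known. Alternatives were thinning to 1000 UMIs, median-of-ratios scaling, minimums of 5 and 50 UMIs, members by centroid, possible doublets or the top cell left out, mean per cell, other reference clusters and each library left out. Only the ratios between libraries and their intervals were tested on simulated data. The simulated counts were Poisson draws of summed profiles, without the uneven spread of UMIs over cells described above. Python 3.11.15, NumPy 2.4.6, SciPy 1.17.1, pandas 2.3.3 and matplotlib 3.10.9 were used.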

Additional observations from a re-analysis of the deposited data

Results flagged for a closer look

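Only the markers, the key genes and the highest and lowest genes of each comparison were searched here, so the cases are not a count over all genes. In 10 cases such a gene lay at least 2-fold one way in cluster 4 and at least 2-fold the other way in another myeloid cluster. Both ratios came from the same contrast, and both intervals had to exclude 0. With 1 library in each group none of these differences was tested. Spp1, encoding osteopontin, had a combination over control log2 ratio of 1.53 in cluster 4 and of -3.61, -3.03, -2.98 and -3.15 in clusters 0, 1, 2 and 7; in cluster 4, 9 of its 11 control UMIs lay in 1 cell (3.70 without it), and the ratio was -2.57 when members were reassigned by centroid. Combination over anti-PD-1, Spp1 was at 1.23 in cluster 4 and -2.89 in cluster 0. Ccl2 was at 1.34 in cluster 4 and at -1.13 and -1.68 in clusters 2 and 7, combination over control, and at 1.39 in cluster 4 and -1.38 in cluster 7, combination over anti-CTLA-4. For Ccl2, clusters 0, 1 and 2 lay on the side of cluster 4 over anti-CTLA-4 (2.47, 1.84 and 0.61). Combination over control, clusters 0 and 1 did too (0.55 and 0.77), and cluster 4 had 9 control UMIs. Cx3cr1, the fractalkine receptor gene, was at 2.32 in cluster 4 (78 UMIs in the combination and 1 in the control cells) and at -1.65 and -1.56 in clusters 1 and 2. S100a9 was at -2.17 in cluster 4, where 9 of 13 control UMIs lay in 1 cell, and at 3.07 in cluster 0; without that cell it was at -0.62 (-1.97 to 1.49), under 2-fold.

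Aff1, anti-PD-1 over control, was at -3.86 in cluster 4, where 39 of 47 control UMIs lay in 1 cell (-1.42 without it). In cluster 7 it was at 1.45, from 24 UMIs with anti-PD-1 and 7 in the control library. Tmem170b, anti-CTLA-4 over control, was at -3.69 in cluster 4, where 33 of 38 control UMIs lay in 1 cell (-0.91 without it). In cluster 0 it was at 1.47, from 24 UMIs with anti-CTLA-4 and 7 in the control library. The integrin gene Itga4, anti-CTLA-4 over control, was at 1.71 in cluster 4, where 32.0% of the anti-CTLA-4 UMIs lay in 1 cell. In cluster 7 it was at -1.96, from 8 UMIs with anti-CTLA-4 and 14 in the control library. Saa3, combination over anti-PD-1, was at -1.69 in cluster 4 and 2.55 in cluster 7, where 10 anti-PD-1 UMIs were counted. In clusters 0, 1 and 2 it was below 0 as in cluster 4 (-2.47, -1.34 and -0.27).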

How the results depend on the processing

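No paired analysis was possible because each antibody group had 1 library. Shares of cluster 4 were 22.4%, 10.2%, 11.4% and 2.60% without possible doublets (combination, anti-PD-1, anti-CTLA-4, control), a step that took 148 cells of cluster 4 and, through its lymphoid genes, 6005 of 14491 listed cells, so that the denominator is smaller; they were 19.0%, 9.83%, 10.2% and 2.90% by centroid. Against cluster 0 alone, Chil3 was at 0.17, Hp at 0.40 and Sgk1 at 2.01; against cluster 2 alone, Hp was at 2.53. Leaving out each library gave Chil3 0.73 to 1.03. After thinning, combination over control gave Chil3 5.07, Hp 0.29 and Sgk1 0.56; anti-PD-1 over control gave Hp 0.53 and Sgk1 -0.22; anti-CTLA-4 over control gave Chil3 2.20, Hp 0.34 and Sgk1 -0.41; combination over anti-PD-1 gave Chil3 2.40; combination over anti-CTLA-4 gave Sgk1 0.97. By centroid, Chil3 was at 8.02, 5.41 and 5.30 over control (combination, anti-PD-1, anti-CTLA-4), at 2.60 and 2.72 for the combination over anti-PD-1 and anti-CTLA-4, and Sgk1 at 1.23 and 1.01. By mean per cell, Chil3 was at 5.29 for the combination over control, and 2.51 and 2.68 over anti-PD-1 and anti-CTLA-4. Signs changed for Retnla 0.48 (from the 0.5 added to a few UMIs; its mean was 1.75 CPM in cluster 4 and 17.7 CPM in cluster 0), Ccl8 0.26, Nov 1.67, Pf4 2.08 and Ms4a7 0.56 (cluster 0 alone), Saa3 -0.34 and Il1r2 1.30 (cluster 2 alone), Spp1 -2.57 and -0.55 (centroid, combination over control and anti-PD-1), Cxcl10 0.70 (centroid, anti-PD-1 over control), Cenpa 0.26 (without its top cell, anti-CTLA-4 over control), and the alternatively activated list, 0.21 at a minimum of 5 UMIs and -0.28 at 20 (anti-CTLA-4 over control). Counts of genes past 2-fold varied widely: against the other myeloid clusters from 50 to 546 higher (335) and 324 to 1727 lower (481); combination over control 256 to 1153 (534) and 225 to 1597 (635); anti-PD-1 over control 154 to 959 (369) and 98 to 1106 (333); anti-CTLA-4 over control 132 to 933 (352) and 104 to 1100 (315); combination over anti-PD-1 98 to 583 (263) and 133 to 676 (266); combination over anti-CTLA-4 107 to 610 (295) and 117 to 730 (279). The cause of these shifts was not tested. Members by centroid against the other clusters, the limit on UMIs in 1 cell, lists against single clusters or without cluster 15, the monocyte list without Chil3, and leaving out the top control cell were added after seeing the data. The 55 control cells set the depth limit: 3 UMIs are 12.7 CPM there.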
